A study of Mus musculus with 36 samples.

Results

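The first 12 h of spontaneous differentiation were followed in 4 of the 36 libraries of the series: 2 taken at 0 h and 2 taken at 12 h, all from batch 1 and all without doxycycline (dox). They were chosen by the labels for batch, genotype, time and treatment alone. Each library was polyadenylated RNA of differentiating mouse embryonic pluripotent stem cells of the genotype labelled WT, grown as hanging drops in serum-containing medium. Time was counted from a stage that the labels call d2-5, so 0 h is a point inside the differentiation and not the undifferentiated culture. Every group compared here, the 0 h group included, carried a transgene from which dox switches on Mesp1, a transcription factor of early mesoderm. No dox was added to the 4 libraries, and the counts do not separate transgene transcripts from those of the endogenous gene. The labels give neither the parental line nor the number of clones. They do not say whether replicates were separate cultures, so the p-values measure only the spread between replicate libraries, which may be technical. That spread was estimated over all 10 libraries of batch 1, including those with dox and those at 24 h, and not from the 4 libraries alone.

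In the mouse embryo, pluripotent epiblast cells leave pluripotency at the primitive streak. Wnt3 and Nodal signals there switch on the T-box factors T (brachyury) and Eomes and the homeobox factor Mixl1, and the cells that pass through the streak form mesoderm and definitive endoderm. Embryonic stem cells left to aggregate in serum switch on the same genes in a similar order, while genes of the naive state, the state of the early epiblast, are shut off.

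Levels are given in CPM, the usual scaling of a count to its library's total over annotated genes, for replicates 1 and 2 in turn, and differences as log2 fold changes with their standard error (SE). The 4 libraries held 17872151 and 20944807 gene counts at 0 h and 46525179 and 22224461 at 12 h, so that 1 count was worth 0.0215 to 0.056 CPM. Replicate 1 at 12 h stood apart from the other 3. Its reads outside annotated genes equalled 9.91% of its gene total, against 5.1% to 5.49% in the others. The first replicates of the 3 other groups taken at 12 h or 24 h in batch 1 had the same mark (9.91% to 10.9%), and neither 0 h library had it. Counts were therefore also taken from a fit with a term for this kind of library, which was added after the files were seen, and without replicate 1 at 12 h.

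Over 12 h, 50 genes rose and 16 fell among the 18544 genes tested (edgeR quasi-likelihood test, Benjamini-Hochberg adjusted p below 0.05). The genes called were 0.356% of those tested, with 0.27% called higher and 0.0863% called lower. A short list with 0 calls is therefore not set apart from all genes. Of the genes that rose, 46 did so at least 2-fold, and 12 of those that fell did so at least 2-fold. Among called protein-coding genes with at least 5 CPM and little exon sharing, the 10 largest rises began with Sp5, Frzb, Mixl1, Evx1, T and Cer1. Grrp1, Cdh11, Lgr5 and Lhx1 followed. Grrp1 is in none of the lists, Cdh11 is in that for mesenchyme and EMT, and Lgr5 in that for Wnt antagonists and targets. The others are on the lists for the primitive streak or the organizer, which were chosen with earlier results of these data known. The largest falls were those of Mael, Fgf4, Dmrt1 and Piwil2. Grm8, a glutamate receptor gene under 1 CPM, had the highest log2 fold change of the 50 genes (3.72). Its 0 h levels of 0.056 and 0.0477 CPM were 1 count in each library. With the library-kind term 1029 genes were called higher (5.55%) and 839 lower (4.52%), including all 66, each in the same direction. List counts given below with that term are to be read against these 2 shares. Without replicate 1 at 12 h, 25 genes of 19192 were called higher (0.13%) and 0 lower, and 24 of the 25 were among the 66. When batch 2 was added with a batch term, 59 genes were called, 27 of them among the 66. At an unadjusted p below 0.05 there were 2224 genes in the fit of all libraries and 1665 without that replicate. The median log2 fold change of all genes tested was 0.03.

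T, the T-box factor that marks the streak, is ENSMUSG00000062327, on chromosome 17 at 8434423 to 8442496 of GRCm38, plus strand. Its level was 12.9 and 16.7 CPM at 0 h and 124 and 149 CPM at 12 h, a log2 fold change of 3.14 ± 0.17 (SE; edgeR adjusted p = 0.000512). Both 12 h libraries lay well above both 0 h libraries, and the call held whichever of the 4 libraries was left out (adjusted p of 0.00112 to 0.00737). It was lost when batch 2 was added to the fit with a batch term (adjusted p = 0.0747). Mixl1, a homeobox factor of the streak and of mesendoderm (ENSMUSG00000026497, chromosome 1 at 180693043 to 180697034, minus strand), was at 7.83 and 6.06 CPM at 0 h and at 68 and 103 CPM at 12 h. The difference of 3.57 ± 0.26 was called (adjusted p = 0.00122) and stayed so under every alternative run, although replicate 2 at 12 h was clearly higher than replicate 1. Eomes, which specifies definitive endoderm and early mesoderm (ENSMUSG00000032446, chromosome 9 at 118478212 to 118486132, plus strand), was already well expressed at 0 h, with 71.3 and 51 CPM. It rose to 282 and 341 CPM (2.29 ± 0.19, adjusted p = 0.00177), and all 4 fits that left out a library called it. The overlapping locus Gm33460 rose by 2.17 as well. Gm33460 shares 22% of its exon bases with other genes, and since the use of strand in the counting is not given in the sources used here, reads of the overlapping loci cannot be told apart.

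The promoters of 4 of these genes are shown because they belong to the streak and Nodal genes with the smallest p. Mixl1 had a smaller p than Lhx1, Eomes and Cer1 but is left out, since the promoter set held no usable entry for it. Each runs from 250 bases before RefSeq's start of the gene to 50 after it, 5′ to 3′ on the gene's strand, on GRCm38.p6, and that start can lie some bases from the GENCODE gene bounds given here. The TCF/LEF core, bound by the factors that carry the Wnt signal, stands in capitals where it was found.
T, chr17:8434173-8434472, plus strand: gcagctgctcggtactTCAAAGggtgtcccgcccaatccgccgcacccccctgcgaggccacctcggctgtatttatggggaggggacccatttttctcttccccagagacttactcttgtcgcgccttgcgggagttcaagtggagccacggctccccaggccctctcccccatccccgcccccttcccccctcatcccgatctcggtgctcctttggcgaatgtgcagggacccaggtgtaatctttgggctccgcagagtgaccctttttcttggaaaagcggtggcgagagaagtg
Lhx1, chr11:84525485-84525784, minus strand: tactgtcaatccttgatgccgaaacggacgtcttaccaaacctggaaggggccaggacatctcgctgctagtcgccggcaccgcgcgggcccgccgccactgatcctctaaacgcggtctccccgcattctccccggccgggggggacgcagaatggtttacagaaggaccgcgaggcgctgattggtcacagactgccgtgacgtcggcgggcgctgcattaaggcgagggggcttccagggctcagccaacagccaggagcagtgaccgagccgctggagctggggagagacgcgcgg
Eomes, chr9:118477939-118478238, plus strand: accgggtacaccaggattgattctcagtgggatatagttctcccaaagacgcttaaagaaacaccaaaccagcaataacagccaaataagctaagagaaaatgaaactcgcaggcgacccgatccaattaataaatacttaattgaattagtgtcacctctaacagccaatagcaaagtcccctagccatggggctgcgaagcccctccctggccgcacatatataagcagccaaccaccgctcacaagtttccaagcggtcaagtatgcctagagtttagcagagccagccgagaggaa
Cer1, chr4:82885102-82885401, minus strand: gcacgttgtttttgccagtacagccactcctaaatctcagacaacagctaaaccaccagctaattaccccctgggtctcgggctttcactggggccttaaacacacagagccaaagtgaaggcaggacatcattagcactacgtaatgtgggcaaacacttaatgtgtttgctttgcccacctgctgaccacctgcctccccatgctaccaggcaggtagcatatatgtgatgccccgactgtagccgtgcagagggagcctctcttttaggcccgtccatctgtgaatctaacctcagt
The core CTTTGA was searched on both strands, and the T promoter held it once, on the minus strand, starting at base 17 of the sequence printed. It was found in 16% of 32817 mouse promoters, in 5 of 38 promoters of genes called higher (13.2%) and in 1 of 10 of genes called lower. The FOXH1 core AATNCACA, for the partner of the Nodal effectors, was in 3.6% of all promoters, the T-box site AGGTGTGA in 1.27% and the SMAD palindrome GTCTAGAC in 0.213%. None of these 3 was found in the 38 promoters of genes called higher, and AGGTGTGA was in 1 of the 10 of genes called lower. Read on opposite strands, the T-box and FOXH1 letters can share bases, and neither was found in the 4 promoters printed. A missing match says only that these letters were not in the window.

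**Figure D1:**
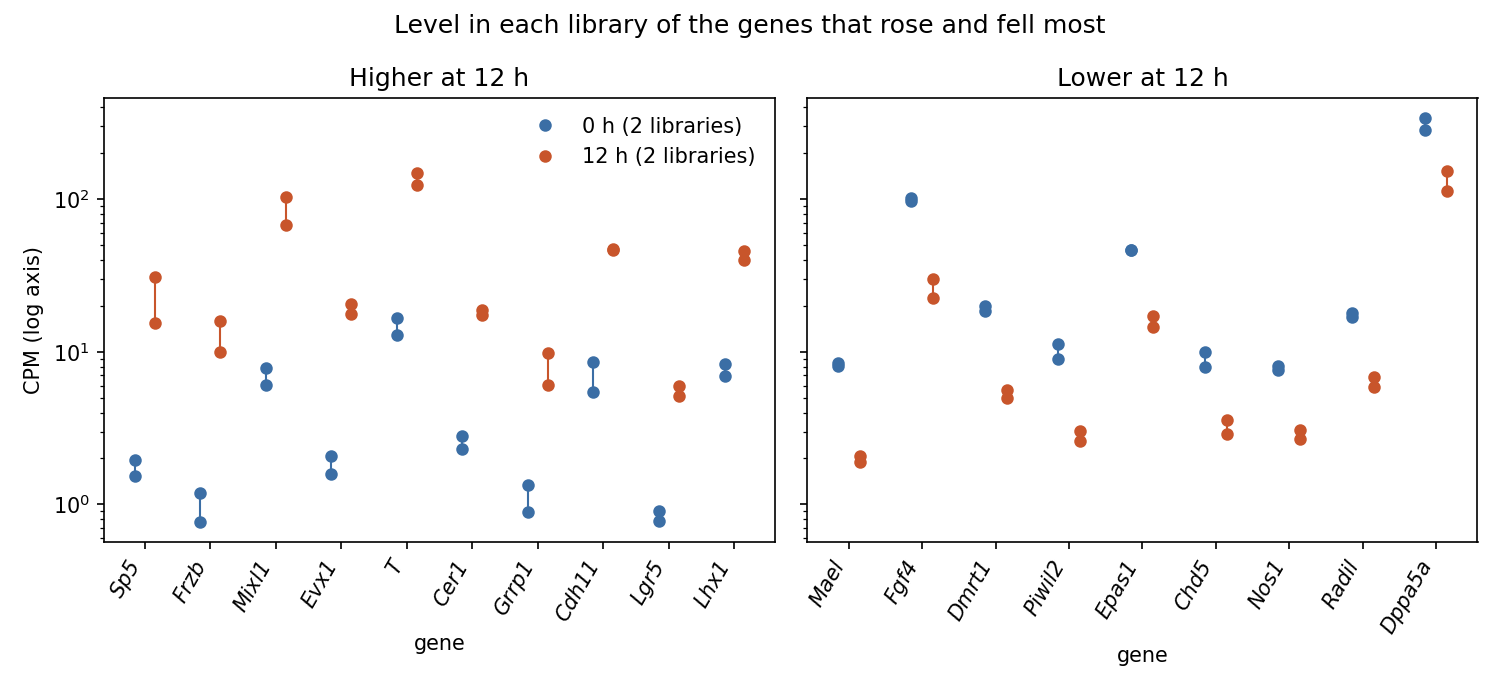
Level in CPM (log axis) in each of the 4 libraries for 10 genes that rose most and 9 that fell most by the naming rule, with 0 h in blue and 12 h in orange and a line joining the replicates of a time. The groups do not overlap for any of the 19 genes, which the rule required, and the replicates at 12 h lie furthest apart for Sp5, with 15.4 and 31.1 CPM.

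Of the 22 primitive streak regulators listed, all tested, 8 rose and 0 fell, and their median log2 fold change was 1.89. Both 12 h libraries lay above both 0 h libraries for 20 of the 22, against 32.4% of all genes tested. The gene lists were chosen with earlier results of these data known. List counts and medians, here and below, are therefore descriptions and not independent support. The library-kind term gave 15 called higher, and 8 were called without replicate 1 at 12 h. Besides T, Mixl1 and Eomes, the 8 were Sp5, Evx1, Lhx1, Snai1 and Wnt3. Lhx1, a homeobox factor of the organizer and the anterior streak, went from 8.34 and 6.97 CPM to 39.7 and 45.8 CPM (2.42 ± 0.19, adjusted p = 0.00135) and lost its call only with the batch term (adjusted p = 0.213). Evx1, a homeobox factor of the posterior streak, went from 2.07 and 1.58 CPM to 17.8 and 20.7 CPM (3.34 ± 0.33, adjusted p = 0.00442). Its call was lost without replicate 1 (adjusted p = 0.0761) or replicate 2 (0.144) at 0 h.

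Sp5 is a zinc-finger factor that Wnt signalling switches on directly. It was at 1.96 and 1.53 CPM at 0 h and at 15.4 and 31.1 CPM at 12 h, a rise of 3.68 ± 0.45 (edgeR adjusted p = 0.0156). The groups were far apart, but the call was lost without either 0 h replicate (adjusted p of 0.168 and 0.255). Mesp1, the gene that the transgene carries (ENSMUSG00000030544, chromosome 7 at 79792241 to 79793788, minus strand), was at 0.224 and 0.382 CPM at 0 h and at 4.58 and 5.98 CPM at 12 h. The difference of 4.00 ± 0.65 missed the threshold (adjusted p = 0.0539) and passed it with the library-kind term (adjusted p = 0.00104). Its neighbour Mesp2 stood at 0.504 and 0.525 CPM and then at 1.07 and 1.12 CPM, a difference of 1.02 that was not called (adjusted p = 0.344). Fgf8, the growth factor that drives cells out of the streak, was at 36.1 and 32.3 CPM and then at 72.3 and 121 CPM (1.44 ± 0.43, adjusted p = 0.213, and 0.00298 with the library-kind term).

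Genes of the organizer and definitive endoderm formed the next group, with 5 of 22 tested members called higher, 0 lower and a median of 1.34. The library-kind term gave 11 called higher, and 4 were called without replicate 1 at 12 h. Cer1, a secreted inhibitor of Nodal, BMP and Wnt ligands (ENSMUSG00000038192, chromosome 4 at 82881751 to 82885148, minus strand), went from 2.8 and 2.29 CPM to 17.4 and 18.9 CPM (2.77 ± 0.27, edgeR adjusted p = 0.00442). Frzb, a secreted Wnt inhibitor, went from 1.18 and 0.764 CPM to 9.97 and 15.8 CPM (3.68 ± 0.46, adjusted p = 0.0167). Fst, which traps activin, went from 36.1 and 26.4 CPM to 141 and 173 CPM (2.27 ± 0.28, adjusted p = 0.0167). Chrd, which traps BMP ligands, went from 4.98 and 4.68 CPM to 13.7 and 12.3 CPM (1.37 ± 0.13, adjusted p = 0.00294). For all 4 inhibitors the 12 h libraries lay above the 0 h libraries without overlap, as they did for 32.4% of all genes tested. Leaving out 1 library ended the call of Cer1 for either 0 h replicate (0.0761 and 0.144), of Frzb for either 0 h replicate (0.154 and 0.255) and for replicate 2 at 12 h (0.0842), of Chrd for replicate 2 at 0 h (0.0886), and of Fst for each of the 4 (0.052 to 0.255). The endoderm factors Foxa2 and Sox17 and the organizer factor Gsc were not called. Foxa2 stood at 8.34 and 6.54 CPM and then at 35.3 and 49.5 CPM (2.45, adjusted p = 0.0642). Gsc stood at 3.02 and 1.43 CPM and then at 14.6 and 24.7 CPM (3.09, adjusted p = 0.0539). Sox17 stood at 2.46 and 3.82 CPM and then at 7.57 and 9.63 CPM (1.38, adjusted p = 0.0556). All 3 passed with the library-kind term.

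Among later mesoderm lists fewer genes were called. Of 25 nascent and lateral mesoderm genes 1, Snai1, rose and 0 fell, with a median of 0.88, and 7 were called higher and 2 lower with the library-kind term. Snai1, which represses E-cadherin as cells leave the epithelium, went from 3.47 and 3.1 CPM to 12.7 and 16.3 CPM (2.08 ± 0.27, edgeR adjusted p = 0.0197), a call that was kept without replicate 1 at 12 h and lost without any other library (0.117 to 0.255). Aplnr, the apelin receptor of migrating mesoderm, stood at 0.615 and 0.764 CPM and then at 6.19 and 8.05 CPM (3.28, adjusted p = 0.0556). Kdr, the VEGF receptor of blood and vessel progenitors, stood at 0.951 and 0.764 CPM and then at 4.06 and 3.42 CPM. Among 18 paraxial and presomitic, 14 cardiac, 8 blood and 12 Hox and Cdx genes tested, 0 were called in either direction. With 0.356% of all genes tested called, 0 calls do not set these lists apart. Medians were 0.30 for paraxial, 0.46 for cardiac and -0.01 for blood genes. Under the library-kind term 2 paraxial genes were called higher and 2 lower, 1 cardiac gene higher, 1 blood gene lower and 1 Hox or Cdx gene higher. With that term 5.55% of all genes tested were called higher and 4.52% lower, so single calls do not set these lists apart either.

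**Figure D2:**
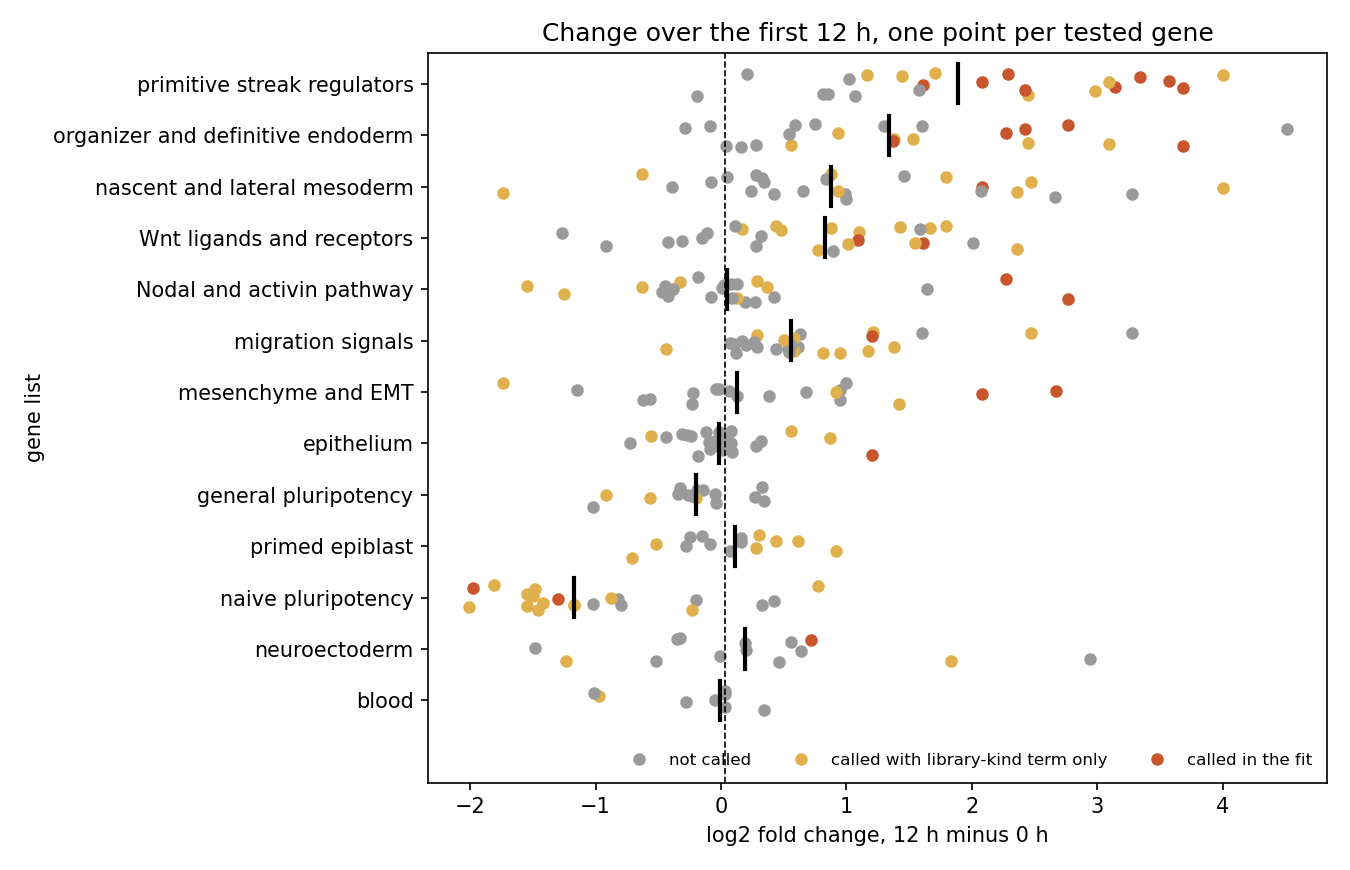
Log2 fold change from 0 h to 12 h (x axis) of each tested gene in 13 of the 40 lists, with genes called in the fit in orange, genes called with the library-kind term alone in yellow and the others in grey. Black bars mark list medians, from 1.89 for primitive streak regulators to -1.17 for naive pluripotency, and the dashed line marks the median of all genes tested, 0.03.

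Pluripotency genes did not move as one group. Of 21 naive pluripotency genes tested, Fgf4 and Dppa5a fell, 0 rose, and the median was -1.17. Both 12 h libraries lay below both 0 h libraries for 14 of the 21, against 18% of all genes tested. With the library-kind term 14 were called lower and 1, Nanog, higher, while without replicate 1 at 12 h 0 were called. Fgf4 (ENSMUSG00000050917, chromosome 7 at 144847367 to 144865243, plus strand) went from 97.2 and 101 CPM to 30.1 and 22.4 CPM (-1.98 ± 0.24, edgeR adjusted p = 0.016). Dppa5a, a marker of the naive state, went from 339 and 285 CPM to 152 and 113 CPM (-1.3 ± 0.18, adjusted p = 0.0265). Neither call held without 1 of the 4 libraries (adjusted p of 0.0846 to 0.196 for Fgf4 and 0.0906 to 0.251 for Dppa5a). Esrrb, an orphan nuclear receptor of the naive network, stood at 59.3 and 34.5 CPM and then at 16.6 and 7.74 CPM, and its difference of -2.01 ± 0.46 was not called (adjusted p = 0.112). The same held for Dppa2 (-1.81, adjusted p = 0.105), Nr0b1 (-1.55, 0.186), Dppa4 (-1.46, 0.201), Klf2 (-1.42, 0.101) and Zfp42 (-1.17, 0.389), each of which passed with the library-kind term.

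Nanog, a factor of the naive network that the primitive streak also expresses, was at 169 and 134 CPM at 0 h and at 263 and 276 CPM at 12 h. Its 12 h libraries lay above its 0 h libraries, as they did for 32.4% of all genes tested. The difference of 0.77 ± 0.13 missed the threshold (edgeR adjusted p = 0.0556, and 0.00039 with the library-kind term). Pou5f1 (Oct4) stood at 798 and 750 CPM and then at 682 and 693 CPM (-0.23, adjusted p = 0.635). Sox2, which is shut off in mesoderm and kept in neural cells, stood at 174 and 115 CPM and then at 88.4 and 61.1 CPM (-1.02 ± 0.36, adjusted p = 0.296, and 0.103 with the library-kind term). Neither Pou5f1 nor Sox2 had an overlap between times, and neither was called. Of all genes tested, 18% were likewise lower at 12 h without overlap. Of 15 general pluripotency genes 0 were called (median -0.20), and with the library-kind term 3 were called lower, Zfp281, Mycn and Utf1. Of 14 primed epiblast genes 0 were called (median 0.11), and Otx2, a factor of the primed epiblast, stood at 220 and 197 CPM and then at 216 and 193 CPM (-0.09). With the library-kind term 5 were called higher and 2 lower.

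Of the largest falls by the naming rule, 9 are reported here. Mael, needed to silence transposons in male germ cells (ENSMUSG00000040629, chromosome 1 at 166201201 to 166238747, minus strand), went from 8.39 and 8.07 CPM to 1.91 and 2.07 CPM (-2.11 ± 0.23, edgeR adjusted p = 0.0068). Piwil2, a piRNA-binding protein, went from 8.95 and 11.3 CPM to 3.03 and 2.61 CPM (-1.9 ± 0.26, adjusted p = 0.0238). Dmrt1, a factor of testis development, went from 18.5 and 19.8 CPM to 4.99 and 5.58 CPM (-1.92 ± 0.26, adjusted p = 0.0249). The replicates of each time were close and the times were far apart for all 3. For all 9 falls reported here the call was lost whichever of the 4 libraries was left out, with adjusted p from 0.0632 to 0.27, and each of those 4 fits called 0 genes lower. The remaining 6 were Fgf4 and Dppa5a, the hypoxia factor Epas1 (46.4 and 46.6 to 14.6 and 17.1 CPM), the chromatin remodeller Chd5, the nitric oxide synthase Nos1 and the Rap-binding protein Radil (17 and 18 to 6.86 and 5.89 CPM). Of the 9 genes tested from the primordial germ cell list 0 were called (median -0.63), and with the library-kind term 3 were called higher and 4 lower.

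The list of Wnt ligands and receptors had the highest median of the signalling lists. Of 26 Wnt ligands and receptors 2 rose and 0 fell, with a median of 0.83, and both 12 h libraries lay above both 0 h libraries for 17 (32.4% of all genes tested). Adding the library-kind term gave 14 called higher and 0 lower, and without replicate 1 at 12 h 1 was called. Wnt3, the ligand that starts the streak, went from 8.39 and 7.11 CPM to 23.7 and 25.8 CPM (1.61 ± 0.16, edgeR adjusted p = 0.00442). Wls, which carries Wnt ligands to the cell surface, went from 34 and 31.8 CPM to 73.6 and 72.8 CPM (1.09 ± 0.15, adjusted p = 0.0249). Replicates of a time were close for both genes. The call of Wnt3 was lost without replicate 2 at 0 h (0.107) or at 12 h (0.0516), and that of Wls without any 1 of the 4 (0.123 to 0.292). Other ligands were higher at 12 h without a call: Wnt8a stood at 14.4 and 8.78 CPM and then at 34.5 and 42.5 CPM (adjusted p = 0.0556), and Wnt5b at 3.3 and 3.06 CPM and then at 7.05 and 10.9 CPM (0.0969).

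Of 22 Wnt antagonists and targets 3 rose, Sp5, Frzb and Lgr5, and 0 fell, with a median of 0.02 against 0.03 for all genes tested. Lgr5, a receptor for R-spondins and a Wnt target, went from 0.783 and 0.907 CPM to 5.16 and 5.98 CPM (2.64 ± 0.24, edgeR adjusted p = 0.00294). The times did not overlap (32.4% of all genes tested were likewise higher), and the call was lost without either 0 h replicate. Axin2, a feedback inhibitor that reports Wnt activity in most tissues, stood at 26.1 and 20.6 CPM and then at 57 and 79.8 CPM, a difference of 1.49 ± 0.33 that was not called (adjusted p = 0.107, and 1.53e-07 with the library-kind term). With that term 8 of the list were called higher and 1 lower.

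In the Nodal and activin pathway the members did not move one way. Nodal itself stood at 86.8 and 84.9 CPM and then at 88.9 and 91.8 CPM, with a difference of 0.01 (edgeR adjusted p = 0.989). Of 24 members the inhibitors Cer1 and Fst rose and 0 fell, the median was 0.05, and without replicate 1 at 12 h 1 was called, Cer1. Lefty1, a Nodal antagonist that Nodal switches on, stood at 137 and 169 CPM and then at 67.5 and 67.4 CPM (-1.25 ± 0.24, adjusted p = 0.07, and 0.0368 with the library-kind term). Gdf3, a Nodal-related ligand of pluripotent cells, stood at 52.1 and 45.7 CPM and then at 21.3 and 13.6 CPM (-1.55 ± 0.43, adjusted p = 0.181, and 7.98e-05 with the library-kind term). With that term 5 members were called higher and 4 lower. Lefty2, another antagonist, stood at 187 and 151 CPM and then at 139 and 90.7 CPM (-0.63, adjusted p = 0.251, and 0.0355 with the library-kind term). Of 20 BMP ligands, receptors and antagonists 1, Chrd, rose (4 higher with the library-kind term), and of 13 BMP targets 0 were called (1 higher with the term). Of 17 FGF ligands and receptors Fgf4 fell and 0 rose (3 higher and 1 lower with the term), and of 16 feedback genes of FGF and ERK 0 were called (4 higher with the term). Of 17 Notch genes 0 were called (3 higher and 3 lower with the term).

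Each list of adhesion and migration described here held a small number of genes called in the fit of all libraries, all of them higher. Of all genes tested, 0.27% were called higher. In lists of 19 to 27 genes 1 call is already a larger share, so that comparison does not set these lists apart. With the library-kind term 5.55% of all genes tested were called higher and 4.52% lower. Of 19 mesenchyme and EMT (epithelial to mesenchymal transition) genes Cdh11 and Snai1 rose and 0 fell, with a median of 0.13, and 4 were called higher and 1 lower with the library-kind term. Cdh11, a cadherin of mesenchyme, went from 8.62 and 5.49 CPM to 46.2 and 47.3 CPM (2.67 ± 0.19, edgeR adjusted p = 0.00122), and it was called without any 1 library (0.00299 to 0.0135) and with the batch term (0.00413). Cdh1 (E-cadherin), the cadherin of epithelium, stood at 1047 and 1037 CPM and then at 858 and 948 CPM (-0.27, adjusted p = 0.533). Cdh2 (N-cadherin), the cadherin that replaces it in mesoderm, stood at 34.8 and 32.3 CPM and then at 63.8 and 68.3 CPM (0.92, adjusted p = 0.174, and 0.00171 with the library-kind term). For both genes the times did not overlap, and neither was called. Of all genes tested, 18% were lower at 12 h without overlap and 32.4% were higher. Fn1 (fibronectin), a matrix protein on which mesoderm migrates, stood lower at 12 h, at 535 and 500 CPM and then at 352 and 374 CPM (-0.57), without a call. Of 26 epithelium genes Krt19 rose, from 5.37 and 7.02 CPM to 14.4 and 15.3 CPM (1.20, adjusted p = 0.033), and 0 fell, with a median of -0.02, and 3 were called higher and 1 lower with the library-kind term. Of 27 migration signals 1, the ephrin receptor Epha1, rose, from 89.9 and 82.4 CPM to 193 and 221 CPM (1.20 ± 0.14, adjusted p = 0.0151). The median of that list was 0.56, with no overlap between times for 22 genes that were higher (32.4% of all genes tested) and 1 that was lower (18%), and with the library-kind term 11 were called higher and 1 lower. The call of Krt19 was lost without any 1 library (0.125 to 0.293), and that of Epha1 was kept without replicate 1 at 12 h (0.0351) and lost without any other (0.117 to 0.255).

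Other rises by the naming rule or in single lists were small groups. Grrp1 went from 0.895 and 1.34 CPM to 6.06 and 9.76 CPM (2.74 ± 0.41, edgeR adjusted p = 0.0373). Flt1, a VEGF receptor, went from 11.1 and 6.88 CPM to 27.8 and 28.2 CPM (1.58 ± 0.20, adjusted p = 0.0197). Ccnd2 (cyclin D2), which drives entry into the cell cycle, went from 9.85 and 10.3 CPM to 25.6 and 33.3 CPM (1.49 ± 0.23, adjusted p = 0.0456). Cdkn1c, an imprinted inhibitor of the cell cycle, fell from 28.3 and 27.2 CPM to 18 and 18.4 CPM (-0.67 ± 0.11, adjusted p = 0.0444), and it shares 30.7% of its exon bases with Gm44732. These 4 genes did not overlap between times, like the 32.4% of all genes tested that were higher and the 18% that were lower. Each of the 4 genes lost its call without at least 3 of the 4 libraries in turn. The highest adjusted p was 0.314 for Grrp1, 0.142 for Flt1, 0.33 for Ccnd2 and 0.314 for Cdkn1c. Ccnd2 and Cdkn1c were the only 2 of 24 cell cycle genes called. In the lists for cholesterol synthesis (18 genes tested), glycolysis and hypoxia (24), p53 targets (18) and matrix (19), 0 genes were called. The same held for DNA methylation (13), retinoic acid (13) and replication-dependent histones (10), against 0.356% called among all genes tested. Without replicate 1 at 12 h the counts were 1 for nascent mesoderm, 2 for mesenchyme and EMT, 3 for Wnt antagonists and targets, 1 for BMP ligands and 1 for migration signals, all higher, and 0 for the epithelium, FGF, cell cycle, neuroectoderm and endothelial lists. With the library-kind term 4 DNA methylation genes were called lower, Dnmt3l, Tet1, Dnmt3a and Apobec1, and 5 p53 targets. In each of these 2 lists 1 gene was called higher. Of all genes tested, 4.52% were called lower and 5.55% higher with that term. These 2 lists are named because their counts were seen to be the largest of the 7, so the counts are descriptions only.

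Markers of other cell types were read beside these groups as summed levels. Embryonic fibroblast (feeder) markers summed to 115 and 107 CPM at 0 h and to 131 and 128 CPM at 12 h. Visceral and extraembryonic endoderm markers summed to 933 and 1359 CPM and then to 1174 and 1237 CPM, blood markers to 9.9 and 13.4 CPM and then to 9.97 and 10.6 CPM, and endothelial markers to 63.2 and 73.7 CPM and then to 77.9 and 76 CPM. Dissociation stress genes, which rise when cells are handled, summed to 349 and 400 CPM and then to 428 and 445 CPM. Of these 5 sums the feeder, endothelial and dissociation ones were higher in both 12 h libraries. Their list medians of log2 fold change were -0.08, -0.24 and 0.13, so the first 2 sums do not show a rise of most members. Within the endothelial sum, Flt1 alone went from 11.1 and 6.88 CPM to 27.8 and 28.2 CPM. Trophoblast markers summed to 125 and 107 CPM and then to 333 and 399 CPM. Eomes, the only member called, made up most of that rise, with 71.3 and 51 CPM and then 282 and 341 CPM. The defining placental genes Tpbpa and Prl3d1 were at 0. Neuroectoderm markers summed to 123 and 133 CPM and then to 220 and 204 CPM. Nes, an intermediate filament gene, made up most of each sum, with 113 and 123 CPM and then 210 and 194 CPM. Nes was the only 1 of 14 called (0.72 ± 0.11, edgeR adjusted p = 0.0406), and its call was lost without any 1 library. The median of that list was 0.19, and 13 of its 20 members were below 1 CPM in all 4 libraries. The part of these cells in the results was not tested. In these bulk libraries more cells expressing a gene and more RNA per cell cannot be told apart.

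The next 12 h, from 12 h to 24 h, were fitted in the same model and share the 12 h libraries, so values are set side by side only. In that interval 379 genes were called higher (2.04%) and 194 lower (1.05%). Lhx1 reached 389 and 414 CPM at 24 h, with a difference of 2.42 in the first interval and 3.23 in the next, and Cer1 reached 179 and 149 CPM, with 2.77 and 3.17. T reached 447 and 422 CPM (3.14 and 1.66), Mixl1 229 and 274 CPM (3.57 and 1.55) and Eomes 536 and 563 CPM (2.29 and 0.81). Mesp1 reached 41.5 and 45.3 CPM (4.00 and 3.05) and Mesp2 13.3 and 8.86 CPM. By list, the medians were 1.89 and 1.59 for primitive streak, 1.34 and 1.95 for organizer and endoderm, 0.88 and 2.29 for nascent mesoderm, 0.30 and 1.93 for paraxial mesoderm, 0.46 and 1.66 for cardiac and -1.17 and -1.53 for naive genes. Some genes called in the first interval had differences near 0 in the next: Ppp4r4 stood at 25.7 and 28.4, 80.2 and 83.5, and 84.8 and 72.1 CPM at 0, 12 and 24 h, with differences of 1.53 and -0.07, and Nrcam, a cell adhesion molecule, had 1.46 and 0.14.

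Whether the intervals differed was tested gene by gene as the first difference minus the next. The edgeR test called 0 of 18544 genes, with 567 at an unadjusted p below 0.05, and DESeq2 called 33. With the library-kind term 35 were positive (0.189%) and 32 negative (0.173%), and the genes named here were chosen after their values were seen. Of the 67 genes, 16 had both 12 h libraries above every 0 h and 24 h library without dox of batch 1. They included Nefl, a neurofilament gene, with 163 and 196, 280 and 315, and 142 and 158 CPM at 0, 12 and 24 h (difference of the intervals 1.79, adjusted p = 3.5e-05 with the term), and Cxcl12, a chemokine, with 71.5 and 71.2, 121 and 139, and 83.7 and 98.5 CPM (1.52, adjusted p = 0.00696). Nefl shares 32.8% of its exon bases with its neighbour Nefm, so that their reads cannot be fully told apart. In batch 2 the change of Nefl from 0 h to 24 h was 1.82 and differed from that in batch 1 (adjusted p = 0.0206). Another 19 had both 12 h libraries below every one of those libraries. The share of all genes with either course is not given here. Dll1, a Notch ligand of presomitic mesoderm, stood at 6.21 and 5.25, 2.97 and 3.69, and 22.7 and 20.8 CPM (-3.48, adjusted p = 3.66e-05 with the term) and shares 20.5% of its exon bases with A930024N18Rik. In batch 2 Dll1 was lower at 24 h (4.26 and 19.5 CPM, then 1.1 and 1.07 CPM), and its change differed from that in batch 1 (-3.52 in batch 2, adjusted p of the difference 0.00786). Fn1 (-2.37, adjusted p = 0.0491) and Prdm1, a repressor needed for germ cells (9.4 and 7.02, 5.18 and 3.1, and 16.6 and 15 CPM), were also lowest at 12 h. T (1.52), Mixl1 (2.17) and Nanog (1.05) were among the 35 positive values.

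**Figure D3:**
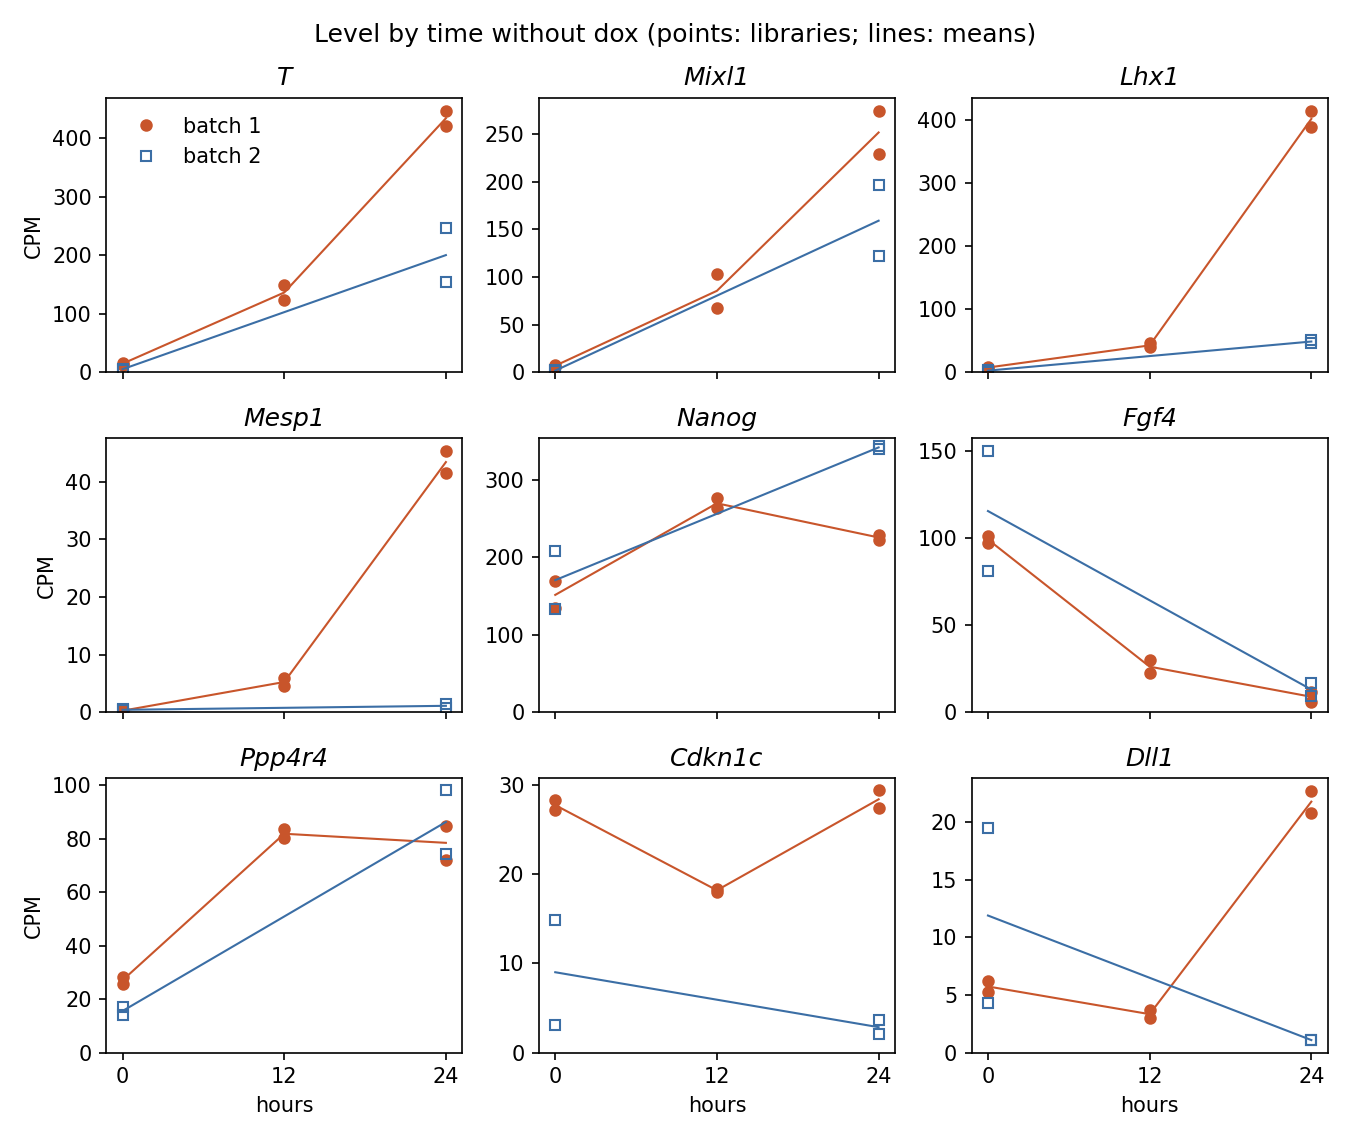
Level in CPM by hours after the d2-5 stage without dox for 9 genes, with filled circles for libraries of batch 1, open squares for those of batch 2, which has no 12 h libraries here, and lines through the means. In batch 1 the means of T, Mixl1, Lhx1 and Mesp1 are higher at each later time, that of Ppp4r4 is 27 CPM at 0 h, 81.9 CPM at 12 h and 78.5 CPM at 24 h, and Cdkn1c and Dll1 are lowest at 12 h. Dll1 falls over 24 h in batch 2.

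Batch 2 gave libraries that share none with this comparison, 2 at 0 h and 2 at 24 h without dox. In it 1001 of 18592 genes were higher at 24 h (5.38%) and 836 lower (4.5%). Of the 50 genes that rose in the first 12 h of batch 1, 40 (80%, and 4% of the batch 2 list) were called higher there and 0 lower. Of the 16 that fell, 13 (81.2%, and 1.56% of the batch 2 list) were called lower and 0 higher. Their median log2 fold changes in batch 2 were 2.47 and -1.75, against 0.00 for all genes. Mixl1 differed by 6.36 in batch 2, Cer1 by 5.88, T by 5.15 and Fgf4 by -3.21. Genes that rose in batch 1 without a call in batch 2 included Grm8 (3.72 in batch 1 and 0.99 in batch 2), Hs3st3b1 (2.53 and 0.89) and Meis2 (1.30 and 0.12). Mesp1 was at 0.532 and 0.386 CPM at 0 h of batch 2 and at 0.808 and 1.5 CPM at 24 h (1.23, adjusted p = 0.729). All 4 libraries of batch 2 thus held less Mesp1 than either 12 h library of batch 1.

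**Figure D4:**
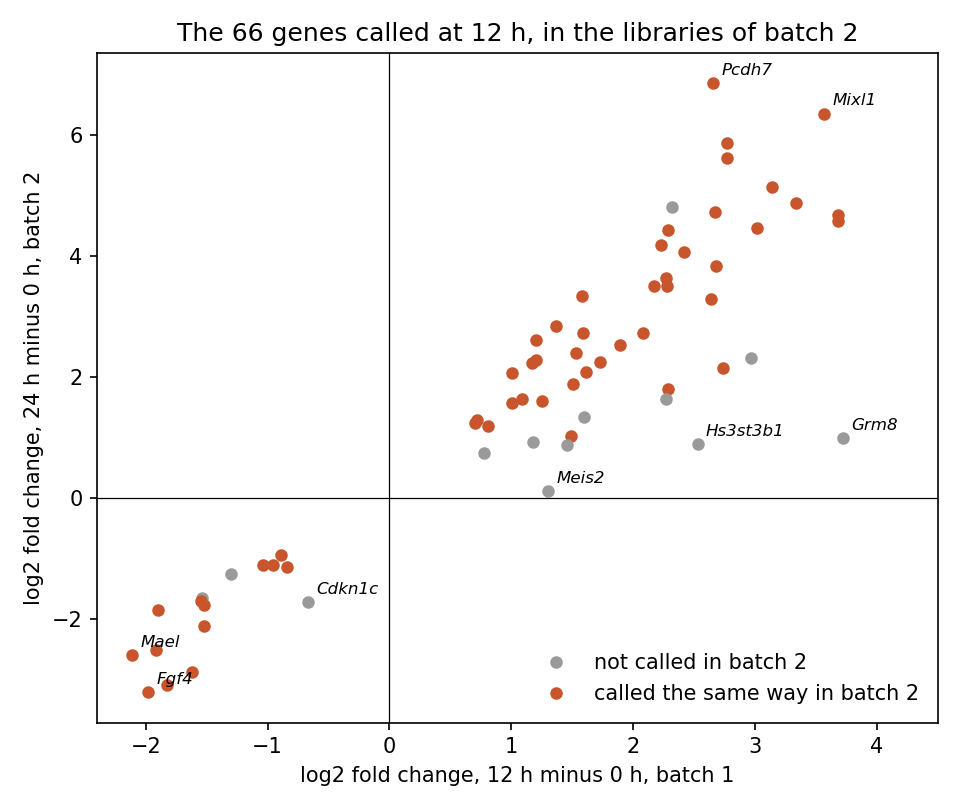
Log2 fold change from 0 h to 12 h in batch 1 (x axis) against that from 0 h to 24 h in batch 2 (y axis) for the 66 genes called over the first 12 h, with the 53 that were called the same way in batch 2 in orange and the other 13 in grey. All 66 points lie in the quadrants of equal sign, and Meis2, at 0.12, lies nearest to no change in batch 2.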

How the data were processed

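The authors deposited raw read counts per Ensembl gene for each library. Trimmomatic, STAR, HTSeq, DESeq2 and the mm10 build are named in the submitters' processing notes. Versions, settings, annotation and strand use were not given in the sources used here. Of 49671 identifiers, 49412 matched a symbol and GRCm38 coordinates of the GENCODE annotation. HTSeq summary lines were left out of the totals, with reads outside genes at 4.74% to 10.9% of the gene total in batch 1.

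Samples were grouped by their labels. The 10 libraries of batch 1, 5 groups of 2, were fitted together with edgeR 4.0.16 in R 4.3.3 (TMM scaling, filterByExpr, robust quasi-likelihood test, 5 residual degrees of freedom), and p-values were adjusted over all 18544 genes tested by the Benjamini-Hochberg method at 0.05. Batches 1 and 2 were fitted together for the batch 2 contrast. On data simulated from these libraries the fit recovered 60 of 100 genes changed 2-fold and 93 of 100 changed 4-fold, and 3 of 156 calls were genes left unchanged. With a simulated difference in kind of library it recovered 48 and 89 of these without the term and 84 and 96 with it, and 15 of 195 calls with the term were genes left unchanged. Alternatives were other scalings, no filter, DESeq2 1.42.0, a replicate block, thinning, other sets of libraries, leaving out each library and, added after the files were seen, a term for the kind of library. The named genes were the 10 largest rises and falls among called protein-coding genes with at least 5 CPM, no overlap between times and at most 20% shared exon bases, called members of each list (up to 6 per direction), up to 3 uncalled members by level, and a fixed set of streak and pluripotency genes. The members and the gene lists were chosen with earlier results of these data known, and uncalled genes named outside the rule were chosen after their values were seen. A gene that the rule named is not reported here. Libraries with other genotypes or labels were not used here.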

Additional observations from a re-analysis of the deposited data

Results flagged for a closer look

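For 8 of the genes described here the change from 0 h to 24 h without dox differed between batches by a test of the difference itself (edgeR, 18592 genes tested). For Gata6, a factor of endoderm and cardiac mesoderm, the log2 fold change was 2.92 in batch 1 and 0.18 in batch 2, a difference of 2.73 ± 0.45 (SE; adjusted p = 0.0206). It stood at 5.26 and 8.98 CPM at 0 h and at 55.2 and 57.9 CPM at 24 h in batch 1, and at 5.32 and 3.71 CPM and then 4.62 and 6.21 CPM in batch 2. For Mesp2, a factor of presomitic mesoderm, the change was 4.35 in batch 1 and -0.70 in batch 2, a difference of 5.05 ± 0.58 (adjusted p = 0.00262). It stood at 0.504 and 0.525 CPM and then at 13.3 and 8.86 CPM in batch 1, and at 0.836 and 0.849 CPM and then at 0.462 and 0.627 CPM in batch 2. At 12 h in batch 1 neither gene had been called, with Gata6 at 12 and 16.6 CPM and Mesp2 at 1.07 and 1.12 CPM. The same test passed for 6 further genes. Dll1 changed by 1.86 in batch 1 and -3.52 in batch 2 (difference 5.38 ± 0.72, adjusted p = 0.00786), Kdr by 6.24 and 1.51 (4.72 ± 0.64, adjusted p = 0.00786), Hs3st3b1 by 5.72 and 0.89 (4.83 ± 0.56, adjusted p = 0.00262) and Meis2 by 2.79 and 0.12 (2.68 ± 0.45, adjusted p = 0.024). For the neighbours Nefl and Nefm, which share exon bases, the changes were -0.33 and 1.82 (-2.14 ± 0.35, adjusted p = 0.0206) and -0.23 and 2.29 (-2.51 ± 0.41, adjusted p = 0.0206). In all, 32 of the genes tested differed between batches.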

How the results depend on the processing

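None of the 66 genes called over the first 12 h changed sign in any alternative run. Over the first 12 h, 66 genes were called (50 higher, 16 lower). The counts were 114 (93 higher) with library totals only, 905 (520 and 385) with no filter, 494 (278 and 216) with DESeq2, 488 (233 and 255) with the 4 libraries compared, 234 (134 and 100) with the 6 libraries without dox and 1868 (1029 and 839) with the library-kind term. Thinning to the smallest library gave 27 lower, the batch term 8 lower and genes with no shared exon bases 33 higher. Leaving out 1 library gave 11 to 25 calls, 11 to 25 higher and 0 to 0 lower. A lone library left at a time was then assumed to vary like the other groups. With a replicate block 1059 genes were called (536 higher, 523 lower), 2142 from 12 h to 24 h, 25 for the difference of intervals, 3739 in batch 2 and 169 for the batch difference. Replicate deviations correlated at 0.259 between 0 h and 12 h and at 0.0993 to 0.811 over all pairs of groups, highest among the groups whose replicate 1 is of the other kind of library. The labels do not say that the 2 numbers mark a shared culture or day. From 12 h to 24 h (573 called) the counts were 1555 with no filter, 1173 with DESeq2, 3264 with the library-kind term and 29 to 207 with 1 library left out. For the difference of intervals (0 called) they were 5 with library totals only, 114 with no filter, 33 with DESeq2, 7 with the 6 libraries and 67 with the library-kind term. In batch 2 (1837 called) they were 2898 with no filter and 377 to 1929 with 1 library left out, and for the batch difference (32 called) 423, 134 with DESeq2 and 3 to 44. Of the 32 named genes called, 19 lost the call with the batch term, 18 without replicate 1 at 12 h and 27 without replicate 2 at 0 h. The cause was not tested. Genes under 1 CPM rest on few counts, since 1 count was worth up to 0.056 CPM.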

Other observations

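Several of the 50 genes that rose encode surface, matrix or channel proteins in none of the lists. They were chosen after their values were seen. Adamts9, a secreted protease, went from 38 and 26.7 CPM at 0 h to 154 and 165 CPM at 12 h (2.23 ± 0.18, SE; edgeR adjusted p = 0.00145), and the protocadherin Pcdh7 went from 5.43 and 4.73 CPM to 33 and 34 CPM (2.66 ± 0.19, adjusted p = 0.00122), although it shares 21.1% of its exon bases with 4932441J04Rik. Adamts9 shares 12% of its exon bases with A730049H05Rik and Gm15737. These loci (2.27 and 2.32) and 4932441J04Rik (2.97) were also among the 50, and reads of overlapping loci cannot be told apart. Piezo2, a mechanically gated channel, went from 9.51 and 9.5 CPM to 30.9 and 28.9 CPM (1.59 ± 0.20, adjusted p = 0.0167). The adhesion molecule Nrcam went from 24.5 and 24.2 CPM to 69.9 and 70.2 CPM (1.46 ± 0.13, adjusted p = 0.00177). For Adamts9, Pcdh7, Piezo2 and Nrcam the times did not overlap, and 32.4% of all genes tested were likewise higher at 12 h.

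Among the genes that fell, Pml, the organizer of PML nuclear bodies, went from 286 and 278 CPM to 150 and 138 CPM (-1.04 ± 0.15, edgeR adjusted p = 0.0322). Mybl2, a cell cycle factor highly expressed in embryonic stem cells, went from 213 and 210 CPM to 120 and 119 CPM (-0.89 ± 0.14, adjusted p = 0.038). In the remaining lists, 1 of 21 imprinted genes (Cdkn1c) fell, 1 of 19 growth factor binding genes (Flt1) rose, and 0 of 17 stress response and 0 of 15 dissociation genes were called. With the library-kind term 2 dissociation genes were called higher and 0 lower. None of the 12 two-cell-like genes passed the filter on low counts.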
